A study of Mus musculus with 6 samples.

Results

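NF-kB subunits and their feedback inhibitors were followed in alveolar macrophages, the phagocytes of the lung air spaces, by RNA sequencing of cells from C57BL/6 mice. The 10 genes were chosen by name: the 5 genes that encode NF-kB subunits (Nfkb1, Nfkb2, Rel, Rela and Relb) and 5 genes that encode proteins holding NF-kB in check or tuning it (Nfkbia, Nfkbie, Nfkbiz, Bcl3 and Tnfaip3). All 10 were found among the 22962 genes of the deposited table and all 10 passed the filter on low values. Bleomycin, an agent that breaks DNA and is used to produce lung fibrosis in mice, had been instilled into the trachea of 1 group, with 3 libraries (replicates 1, 2 and 5). Saline had been instilled in the control group, with 3 libraries (replicates 1, 2 and 3). Lavage was taken 2 weeks later, and cells that stuck to a plate within 30 minutes were washed and lysed, so the libraries hold adherent lavage cells and not a sorted population. The age and sex of the mice and the number of mice per library are not given in the labels.

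NF-kB is a family of dimeric transcription factors. In resting cells the dimers are kept in the cytoplasm by IkB proteins, and a kinase complex that marks IkB for destruction releases them. Many of the genes that NF-kB then switches on encode its own inhibitors, above all Nfkbia and Tnfaip3, and their transcripts are widely used as markers of NF-kB activity in macrophages.

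The promoters of 3 inhibitor genes and of Rela are shown, chosen after the values were seen, because these inhibitors and Rela moved differently between libraries. Each window runs from 250 bases before to 50 bases after a RefSeq start site (build GRCm38.p6, gene strand, 5′ to 3′), and 7 of the 10 genes had such a window. Capitals mark matches on either strand to a loose form of the NF-kB motif, GGG followed by 5 bases of any kind and CC, with overlapping matches run together. A tighter form, GGG followed by 3 bases of any kind and TTCC, lies within it.
Nfkbia, chr12:55492598-55492897, minus strand: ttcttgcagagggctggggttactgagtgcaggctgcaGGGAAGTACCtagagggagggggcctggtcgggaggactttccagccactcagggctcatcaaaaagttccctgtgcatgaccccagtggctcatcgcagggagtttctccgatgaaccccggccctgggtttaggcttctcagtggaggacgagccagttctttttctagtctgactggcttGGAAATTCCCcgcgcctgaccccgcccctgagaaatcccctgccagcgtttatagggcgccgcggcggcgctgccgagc
Nfkbie, chr17:45555450-45555749, plus strand: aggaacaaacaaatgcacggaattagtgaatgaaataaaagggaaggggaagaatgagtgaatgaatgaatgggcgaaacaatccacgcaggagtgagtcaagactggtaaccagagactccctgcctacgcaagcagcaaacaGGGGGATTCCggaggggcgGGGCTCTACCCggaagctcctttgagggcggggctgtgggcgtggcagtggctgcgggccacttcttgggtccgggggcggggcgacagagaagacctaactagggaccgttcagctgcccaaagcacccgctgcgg
Tnfaip3, chr10:19015361-19015660, minus strand: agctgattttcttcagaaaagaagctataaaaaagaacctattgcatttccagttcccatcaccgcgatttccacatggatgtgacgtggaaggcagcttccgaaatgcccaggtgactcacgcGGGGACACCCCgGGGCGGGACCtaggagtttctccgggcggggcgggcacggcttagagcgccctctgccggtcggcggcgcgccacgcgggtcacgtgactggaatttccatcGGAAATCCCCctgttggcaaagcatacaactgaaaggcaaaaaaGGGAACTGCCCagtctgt
Rela, chr19:5637291-5637590, plus strand: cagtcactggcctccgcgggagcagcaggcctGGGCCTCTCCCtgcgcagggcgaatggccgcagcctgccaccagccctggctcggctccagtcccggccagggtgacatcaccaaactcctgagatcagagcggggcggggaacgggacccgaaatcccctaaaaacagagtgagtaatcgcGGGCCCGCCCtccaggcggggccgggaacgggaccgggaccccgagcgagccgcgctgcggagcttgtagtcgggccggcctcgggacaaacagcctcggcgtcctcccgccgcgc

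The tighter motif was found in the windows of 5 of the 7 genes, Nfkbia, Nfkbie, Tnfaip3, Rel and Nfkb2, and in 5.56% of all 32851 promoter windows. The 7 genes had 10 windows between them, so the count by gene and the share by window are not on the same footing. In Nfkbia the match, GGGAATTTCC on the opposite strand, began 29 bases before the start site. In Tnfaip3 the window held GGGGATTTCC, also on the opposite strand, 12 bases before it, and in Nfkbie GGGGGATTCC lay 106 bases before it. The windows of Rela and Bcl3 held no match to the tighter form. Bcl3, not shown above, had the widest saline span of the members, 4.72-fold. Nfkb2, also not shown, had a match in each of its windows and a log2 fold change of -0.20. A link between motif and levels was not tested. The loose form was in all 10 windows of the 7 genes and in 50.8% of all windows. These are matches of letters and were not measured as binding sites.

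Gene levels are normalized read counts, that is, reads divided by 1 size factor per library. Reads recovered from these values numbered 28916201 to 37147983 in bleomycin libraries and 27654799 to 29899133 in saline libraries. The 10 genes had from 3982 (Bcl3) to 65452 (Nfkbia) reads over the 6 libraries, so none of their values rests on few reads. Groups were compared by limma on log2(value + 1) over 13512 genes, two-sided, with Benjamini-Hochberg adjustment and a threshold of 0.05. Whether each library had its own mice is not stated, and a p-value here reflects library-to-library spread, which may in part be technical. The cells carried macrophage markers: Cd68 was at 56877 to 66427 in bleomycin and 45026 to 49701 in saline libraries, and Siglecf, a marker of resident alveolar macrophages, at 7228 to 8182 in bleomycin and 12651 to 16187 in saline libraries. Of 10 listed macrophage markers, all tested, 1 rose after bleomycin (Fcgr1, log2 0.79) and 2 fell (Siglecf and Car4, log2 -0.91 and -1.11). Of all tested genes 9.76% rose and 3.9% fell.

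None of the 10 genes passed the test, while 13.7% of all tested genes did (9.76% rose and 3.9% fell after bleomycin). At an unadjusted p under 0.05 there was 1 of the 10, Nfkbiz, against 25.9% of all tested genes. By edgeR and by DESeq2 on the recovered reads 0 of the 10 passed as well, where 9.64% and 11.4% of all tested genes rose and 3.83% and 5.69% fell. Bleomycin and saline libraries did not overlap in 1 of the 10, Nfkbia, against 30.8% of all tested genes. The subunits and the inhibitors were nevertheless unlike each other in 2 ways that the next values show. All 5 inhibitor genes had higher means after bleomycin, with a median log2 fold change of 0.79, whereas the subunits had a median of -0.03, close to the -0.01 of all tested genes. And the inhibitor genes spread widely among the saline libraries, which the subunits Nfkb1, Rel and Rela did not. The difference between these 2 sets of genes was not tested. In libraries of mixed cells, fewer cells of a type and less RNA per cell cannot be told apart.

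**Figure D1:**
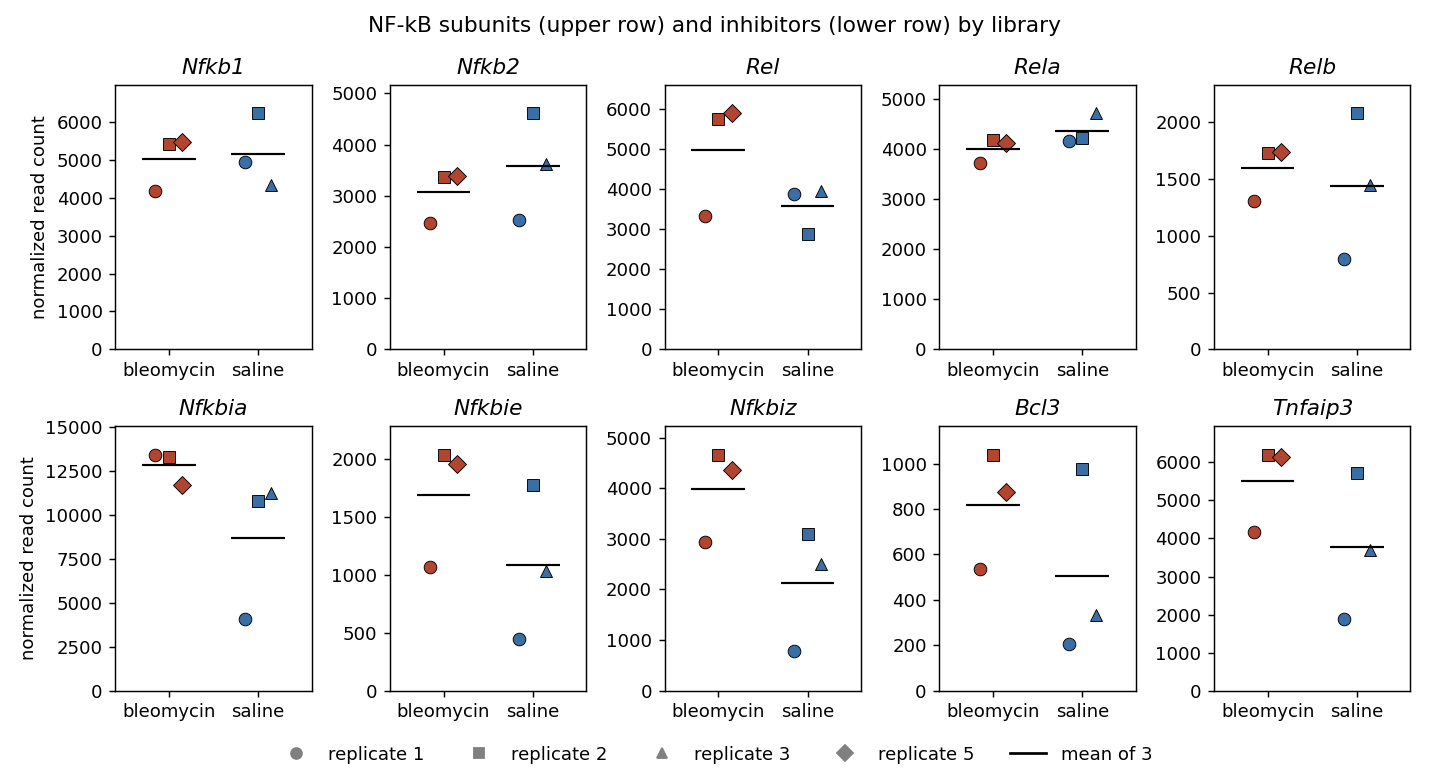
Normalized read counts (vertical axes, each from 0) of the 5 subunit genes (upper row) and the 5 inhibitor genes (lower row) in bleomycin (left) and saline (right) libraries, with a symbol per replicate and a line at the mean of 3. In each inhibitor gene saline replicate 1 is the lowest of the 6 libraries, whereas Rela lies between 3718 and 4716 throughout.

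Rela (chr19:5637483-5648130) encodes p65, which carries a transactivation domain and is the main activating subunit in macrophages. It had 3718, 4187 and 4115 in bleomycin replicates 1, 2 and 5, against 4170.3, 4225 and 4716 in saline replicates 1, 2 and 3. The groups overlapped by a narrow margin, and the log2 fold change was -0.13 ± 0.11 (SE; 95% interval -0.37 to 0.12, limma adjusted p = 0.539). Of the 10 genes Rela varied least: its highest saline library was 1.13 times its lowest, and so was its highest bleomycin library.

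Nfkb1 (chr3:135584655-135691547) encodes p105, which is cut to p50, the usual partner of p65. It had 4185, 5418 and 5474 in bleomycin libraries, against 4925, 6222 and 4332 in saline libraries. The ranges lay across each other, and the log2 fold change was -0.03 ± 0.16 (95% interval -0.41 to 0.34, adjusted p = 0.934). Nfkb1 was thus the member with the smallest difference between groups.

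Rel (chr11:23736847-23770970) encodes c-Rel, an activating subunit that in macrophages and dendritic cells is known for driving interleukin 12 genes. It had 3316, 5734 and 5888 in bleomycin replicates 1, 2 and 5, against 3881, 2889 and 3938 in saline replicates 1, 2 and 3. Bleomycin replicates 2 and 5 lay well above every saline library, and bleomycin replicate 1 lay among them. With that replicate in, the log2 fold change was 0.45 ± 0.23 (95% interval -0.08 to 0.97, adjusted p = 0.274). Without it Rel passed the test (log2 0.72, adjusted p = 0.0203), the only member to pass when 1 bleomycin library was left out. Of all genes tested without that library 8.46% rose. Rel was also the member that least followed the others in saline, where replicate 2 was its lowest library.

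The last pair of subunits belongs to the noncanonical arm, in which the p100 precursor made from Nfkb2 is cut to p52, the partner of RelB. Nfkb2 (chr19:46304320-46312385) had 2465, 3372 and 3385 in bleomycin libraries, against 2532, 4613 and 3627 in saline libraries, with a log2 fold change of -0.20 ± 0.22 (adjusted p = 0.663). It shares 299 exonic bases with Psd on the opposite strand, and because the strand setting of the counting is not given its reads and those of Psd could not be told apart there. Relb (chr7:19606217-19629438) had 1308, 1732 and 1739 in bleomycin libraries, against 792, 2078 and 1447 in saline libraries, with a log2 fold change of 0.24 ± 0.31 (adjusted p = 0.706). For both genes the saline libraries reached above and, for Relb, below all bleomycin libraries. The sign of the Relb difference turned to -0.13 without saline replicate 1.

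**Figure D2:**
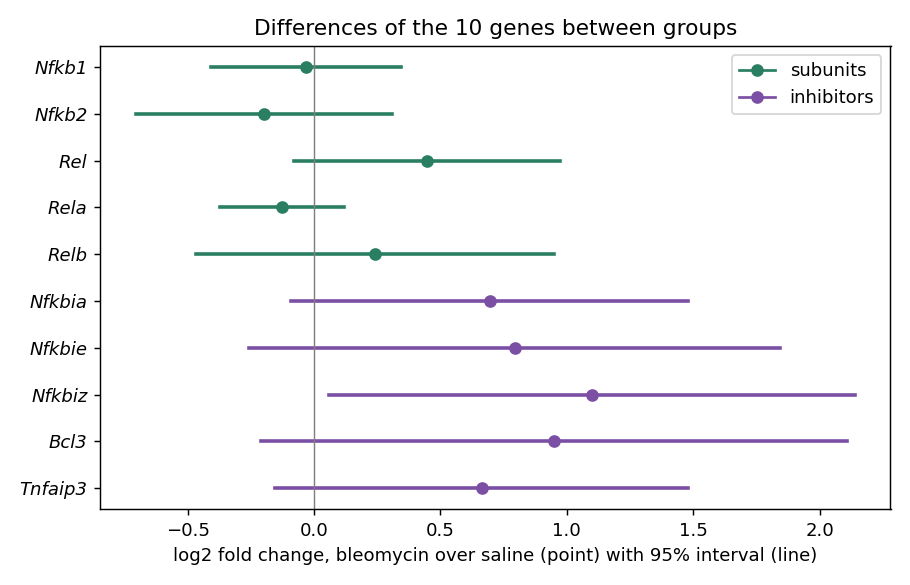
Log2 fold change of bleomycin over saline libraries (horizontal axis; points) with its 95% interval from limma (lines) for the 10 genes, subunits in green and inhibitors in purple. The inhibitors lie at 0.66 to 1.10 with wide intervals, and Nfkb1 and Rela have the narrowest intervals, around 0.

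Among the inhibitors, the cytoplasmic IkB proteins come first. Nfkbia (chr12:55489410-55492647) encodes IkB alpha, which is destroyed within minutes of stimulation and is made again by NF-kB. It had 13455, 13337 and 11734 in bleomycin replicates 1, 2 and 5, against 4078, 10814 and 11253 in saline replicates 1, 2 and 3. Every bleomycin library was above every saline library, but saline replicates 2 and 3 lay near the bleomycin values and replicate 1 far under them. The log2 fold change was 0.69 ± 0.34 (95% interval -0.09 to 1.48, adjusted p = 0.254), and without saline replicate 1 it was 0.22.

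Nfkbie (chr17:45555703-45563169) encodes IkB epsilon, a slower acting relative that binds p65 and c-Rel dimers. It had 1069.9, 2041 and 1960.1 in bleomycin libraries, against 445, 1777 and 1037 in saline libraries, with a log2 fold change of 0.79 ± 0.46 (95% interval -0.26 to 1.84, adjusted p = 0.337). The groups overlapped, since saline replicate 2 was above bleomycin replicate 1. The highest saline library was 3.99 times the lowest.

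Nfkbiz and Bcl3 encode IkB relatives that act in the nucleus, where they bind p50 or p52 and can promote as well as restrain transcription. Nfkbiz (chr16:55811375-55838899) encodes IkB zeta, needed for Il6 and other late genes in mouse macrophages. It had 2937, 4669 and 4355 in bleomycin libraries, against 783, 3093 and 2509 in saline libraries. Its log2 fold change, 1.10 ± 0.46, was the largest of the 10 (95% interval 0.06 to 2.14, limma adjusted p = 0.17). The interval leaves out 0 by itself, but the adjusted p over all genes did not pass, and saline replicate 2 was above bleomycin replicate 1. Without saline replicate 1 the log2 fold change was 0.49.

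Bcl3 (chr7:19808462-19822770) had 535, 1041 and 874 in bleomycin libraries, against 207, 977 and 334 in saline libraries, with a log2 fold change of 0.95 ± 0.51 (95% interval -0.21 to 2.11, adjusted p = 0.296). Here saline replicate 2 stood apart from the other two saline libraries, and Bcl3 passed without it (log2 1.58, adjusted p = 0.0209). It was the only member to pass when 1 saline library was left out, and 8.79% of all genes tested without saline replicate 2 rose. Bcl3 shares 161 exonic bases with the antisense gene Gm16175.

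Tnfaip3 (chr10:19000910-19015657) encodes A20, which edits ubiquitin chains on the adaptors upstream of the IkB kinases and so damps signalling from TNF and Toll-like receptors. It had 4179, 6206 and 6130.3 in bleomycin libraries, against 1881, 5728 and 3709.6 in saline libraries. The groups overlapped in that saline replicate 2 was above bleomycin replicate 1, and the log2 fold change was 0.66 ± 0.36 (95% interval -0.15 to 1.48, adjusted p = 0.299). Without saline replicate 1 it was 0.23.

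The 5 inhibitor genes differed between groups by less than they spanned among saline libraries: their fold changes between groups were 1.58 to 2.14. All 5 inhibitor genes had their highest saline library at least 2 times their lowest, as did 1 of the 5 subunits, Relb, against 17.0% of all tested genes. The folds were 2.76 for Nfkbia, 3.05 for Tnfaip3, 3.95 for Nfkbiz, 3.99 for Nfkbie and 4.72 for Bcl3. Of the 10052 tested genes with a mean of at least 100, from 97.6% (Nfkbia) to 99.2% (Bcl3) had a smaller saline fold than these. Among bleomycin libraries the same 5 genes spanned 1.15-fold (Nfkbia) to 1.94-fold (Bcl3). The span was narrower in bleomycin than in saline libraries for 9 of the 10 genes, all but Rel, against 56.2% of all tested genes.

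The libraries kept a common order. Saline replicate 1 was the lowest of the 6 libraries in all 5 inhibitor genes and in 1 subunit, Relb, that is, in 6 of the 10, against 17.1% of all tested genes. The saline order replicate 2 over replicate 3 over replicate 1 held in 6 of the 10 (Nfkb2, Relb, Nfkbie, Nfkbiz, Bcl3 and Tnfaip3), against 14.7% of all tested genes. Among bleomycin libraries, replicate 1 was the lowest in 9 of the 10, all but Nfkbia, against 46.7% of all tested genes. Measured from each gene's mean over the 6 libraries, the median inhibitor lay at -0.04, 0.73 and 0.63 (log2) in bleomycin replicates 1, 2 and 5, and at -1.45, 0.41 and -0.21 in saline replicates 1, 2 and 3. The median subunit lay at -0.27, 0.10 and 0.12 in these bleomycin libraries, and at -0.09, 0.30 and -0.01 in these saline libraries. The members share libraries and reads of the same cells, so they do not count as separate observations of this order.

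**Figure D3:**
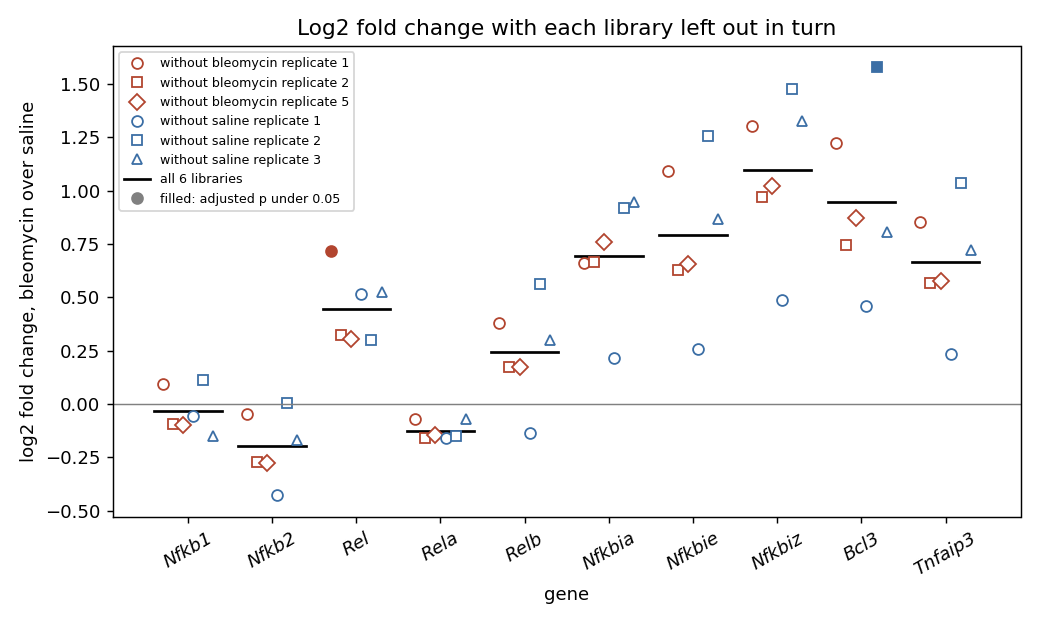
Log2 fold change of bleomycin over saline (vertical axis) for each gene with all 6 libraries (line) and with 1 library left out (red symbols, a bleomycin library; blue symbols, a saline library; filled where the adjusted p was under 0.05). The inhibitor values drop most without saline replicate 1, to 0.22 to 0.49, and the symbol is filled for Bcl3 without saline replicate 2; Rel is filled without bleomycin replicate 1.

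Markers of other cells moved with some of these libraries. Of 9 listed neutrophil markers, 5 were tested and 3 rose, where 9.76% of all tested genes rose. The list summed to 5671 to 6596 in bleomycin and 2552 to 3860.2 in saline libraries. Most of these sums lay in Mmp8 and Csf3r, with means of 2912 and 1125 in bleomycin and 1207.5 and 1249 in saline libraries. The neutrophil gene S100a9, chosen after its values were seen, was at 20.7, 56 and 37.1 in bleomycin replicates 1, 2 and 5, and at 4.9, 503 and 7.42 in saline replicates 1, 2 and 3. It thus stood out in saline replicate 2, the saline library in which 4 of the 5 inhibitors were highest, as were 30.5% of all tested genes. Camp was at 1.8, 0 and 0 in bleomycin libraries and at 0 in all saline libraries. Retnlg was at 0.898, 2.2 and 0 in bleomycin libraries, at 0 in saline replicates 1 and 3 and at 12 in saline replicate 2. S100a8, among the 3 that rose, was at 1246, 703 and 972 in bleomycin libraries against 166, 434 and 239 in saline libraries. Csf3r, which did not pass, was at 760, 1353 and 1264 in bleomycin libraries against 1030, 1734 and 984 in saline libraries. Both were highest of the saline libraries in replicate 2. Cxcr2 and Mmp8, which were also among the 3 that rose, were by contrast lowest in saline replicate 2. Cxcr2 was at 897, 1099 and 925 in bleomycin libraries against 264, 179 and 334 in saline libraries, and Mmp8 at 2744, 3383 and 2608 in bleomycin libraries against 1088, 998 and 1536 in saline libraries. The part of neutrophils in the saline spread was not tested.

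Levels per kilobase of annotated exon allow the genes to be compared with each other. Nfkbia was the most abundant, with 7976 ± 597 normalized counts per kilobase in bleomycin and 5413 ± 2498 in saline libraries (SD, n = 3 each). Rela followed with 1304 ± 82.3 in bleomycin and 1423 ± 97.8 in saline libraries. Below Rela came Nfkbiz (795 ± 184), Tnfaip3 (762 ± 159), Nfkb2 (671 ± 115), Rel (667 ± 193) and Nfkbie (555 ± 177) in bleomycin libraries, neighbours that did not differ beyond their SDs. Nfkb1 (417 ± 60.4) and Relb (410.04 ± 63.6) came next in that group. In saline libraries the order below Rela was Nfkb2 (783 ± 227), Tnfaip3 (522 ± 266), Rel (478 ± 79), Nfkb1 (428 ± 80.1) and Nfkbiz (424 ± 239), again within the SDs of neighbours. Relb (370.4 ± 166) and Nfkbie (357 ± 219) came next. Bcl3 was the lowest in each group, with 330 ± 104 in bleomycin and 204 ± 167 in saline libraries. Exon lengths were summed over all annotated isoforms, which understates the level of genes with long, rarely used exons.

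Per kilobase, the ratio of Nfkbia to Rela transcripts was 6.9, 6.08 and 5.44 in bleomycin replicates 1, 2 and 5, against 1.87, 4.88 and 4.55 in saline replicates 1, 2 and 3. The ratio of Rel to Rela was 0.367, 0.563 and 0.589 in bleomycin libraries, against 0.383, 0.281 and 0.344 in saline libraries. Bleomycin libraries were all higher for the Nfkbia ratio, and bleomycin replicates 2 and 5 alone for the Rel ratio. These ratios remove a scaling error of a whole library, since both genes share it.

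Among other inhibitors of the pathway, of 15 listed and tested, 0 passed by limma, against 13.7% of all tested genes. At an unadjusted p under 0.05 there were 3 of the 15, against 25.9% of all tested genes. By edgeR 0 passed, and by DESeq2 1, Otud7b, which fell, as did 5.69% of all tested genes. The median log2 fold change was 0.08. Tnip3, which encodes a partner of A20, had 324, 1032 and 888 in bleomycin libraries, against 71.6, 352 and 215 in saline libraries (log2 1.92 ± 0.60, adjusted p = 0.0734). The saline order was that of Tnfaip3, and the groups overlapped in 1 library of each. Otud7b, a deubiquitinase that protects TRAF3, had 347, 315 and 353 in bleomycin libraries, against 485, 419 and 492 in saline libraries (log2 -0.46 ± 0.14, adjusted p = 0.0744). Nfkbib, which encodes IkB beta, another cytoplasmic inhibitor, differed little (log2 -0.02 ± 0.15, adjusted p = 0.965). The nuclear IkB gene Nfkbid (log2 0.20 ± 0.25) and the A20 partner Tnip1 (log2 -0.08 ± 0.37) had adjusted p = 0.685 and 0.925, and both followed the saline order of replicate 2 over 3 over 1. Rnf11 and Itch, which work with A20, had log2 0.29 ± 0.11 and 0.46 ± 0.21 (adjusted p = 0.138 and 0.214).

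Of 25 listed kinases and adaptors of the canonical arm, 24 were tested, 0 rose and 1 fell (4.17%, near the 3.9% of all tested genes), with a median log2 fold change of -0.02. An unadjusted p under 0.05 was reached by 7 of these 24, and by 25.9% of all tested genes. Bleomycin and saline ranges were separate for 8 of these 24, and for 30.8% of all tested genes. The gene that fell was Ikbkg, which encodes NEMO, the regulatory subunit of the IkB kinase complex, with 970.2, 1006 and 1049 in bleomycin libraries against 1247, 1537 and 1369 in saline libraries (log2 -0.45 ± 0.12, limma adjusted p = 0.0426). Its groups did not overlap, but it shares 418 exonic bases with G6pdx on the opposite strand. The call did not hold without any 1 of saline replicates 2 and 3 and bleomycin replicates 1, 2 and 5 (adjusted p = 0.0763 to 0.181). The catalytic kinase genes Chuk (log2 0.00 ± 0.11) and Ikbkb (log2 -0.10 ± 0.10) had adjusted p = 0.992 and 0.645. Malt1, a protease and scaffold, had log2 0.78 ± 0.23 and the ubiquitin ligase gene Traf6 log2 0.43 ± 0.12 (adjusted p = 0.06 and 0.0562). Both passed by DESeq2, with TMM rescaling and without bleomycin replicate 1. Irak2, a kinase below Toll-like receptors, had log2 0.44 ± 0.15 (adjusted p = 0.1001).

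In the noncanonical arm 8 genes were listed and 7 tested, with a median log2 fold change of 0.38. Of the 7, 2 rose (28.6%, against 9.76% of all tested genes) and 0 fell. Cd40, a receptor of the TNF receptor family that feeds this arm, had 92.5, 190.1 and 197 in bleomycin libraries, against 11.8, 42.4 and 22.3 in saline libraries (log2 2.70 ± 0.48, adjusted p = 0.00712). Birc3, a ubiquitin ligase that is itself an NF-kB target, had 2716, 3613 and 3308 in bleomycin libraries, against 1956, 1981 and 1928 in saline libraries (log2 0.71 ± 0.13, adjusted p = 0.00739). The groups did not overlap in either gene. The Birc3 call did not hold without bleomycin replicate 2 or 5 (adjusted p = 0.0532 and 0.0517). Map3k14, the kinase NIK that starts p100 processing, had log2 0.48 ± 0.27 (adjusted p = 0.313), and Tnfrsf11a, which encodes RANK, log2 0.38 ± 0.18 (adjusted p = 0.243). Tnfrsf13c, a B cell receptor, was listed at 0 in all saline libraries and bleomycin replicate 1 and was not tested.

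Among genes reported as NF-kB targets some rose after bleomycin. Of 32 listed, 29 were tested, 11 rose and 0 fell (37.9% called, against 13.7% of all tested genes). Their median log2 fold change was 0.86. Traf1, an adaptor of TNF receptors, had 300.9, 674 and 675 in bleomycin libraries, against 61.8, 94.5 and 55.1 in saline libraries (log2 2.89 ± 0.35, adjusted p = 0.00118). Cxcl16, a membrane chemokine, had 3743, 5552 and 6217 in bleomycin libraries, against 609, 1499 and 729.6 in saline libraries (log2 2.53 ± 0.33, adjusted p = 0.00155). In both genes the bleomycin libraries lay far above the saline ones, and so did those of the adhesion molecule Vcam1 and the interleukin 12 chain Il12b. Vcam1 had 27.8, 85.7 and 94 in bleomycin libraries, against 4.9, 4.35 and 2.12 in saline libraries (log2 3.75 ± 0.55). With every saline value under 10, Vcam1 passed the filter only through its bleomycin libraries, so its call, 1 of the 11, gives no support. Il12b had 61.1, 192 and 215 in bleomycin libraries, against 15.7, 15.2 and 5.3 in saline libraries (log2 3.52 ± 0.57, adjusted p = 0.00448). Its value in saline replicate 3 was under 10, so Il12b also needed a bleomycin library to pass the filter. The other 7 that rose, named after their values were seen, were Ccl5, Ptgs2, Cd83, Irf1, Csf1, Bcl2l1 and Cflar. The count of rises was 3 without bleomycin replicate 2 or without bleomycin replicate 5, where Vcam1 was no longer tested and 4.02% (without replicate 2) and 3.88% (without replicate 5) of all tested genes rose.

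The target genes Tnf and Il1b, among the best known of the early NF-kB response, did not pass. Tnf had 9338, 10512 and 10057 in bleomycin replicates 1, 2 and 5, against 4045, 22870.2 and 16664 in saline replicates 1, 2 and 3 (log2 -0.21 ± 0.54, adjusted p = 0.857). Its bleomycin libraries lay close together and in the middle of a 5.65-fold saline range, and without saline replicate 1 Tnf was lower after bleomycin (log2 -0.97, adjusted p = 0.0084). Il1b had 10289.9, 21717 and 18562 in bleomycin libraries, against 3209, 18252 and 12425 in saline libraries (log2 0.84 ± 0.58, adjusted p = 0.431). The saline order of replicate 2 over 3 over 1, found in 6 of the 10 members, held in 16 of the 29 tested targets. Among them, chosen after their values were seen, were Cxcl1 and Cxcl2, which spanned 16-fold and 12.4-fold among saline libraries.

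**Figure D4:**
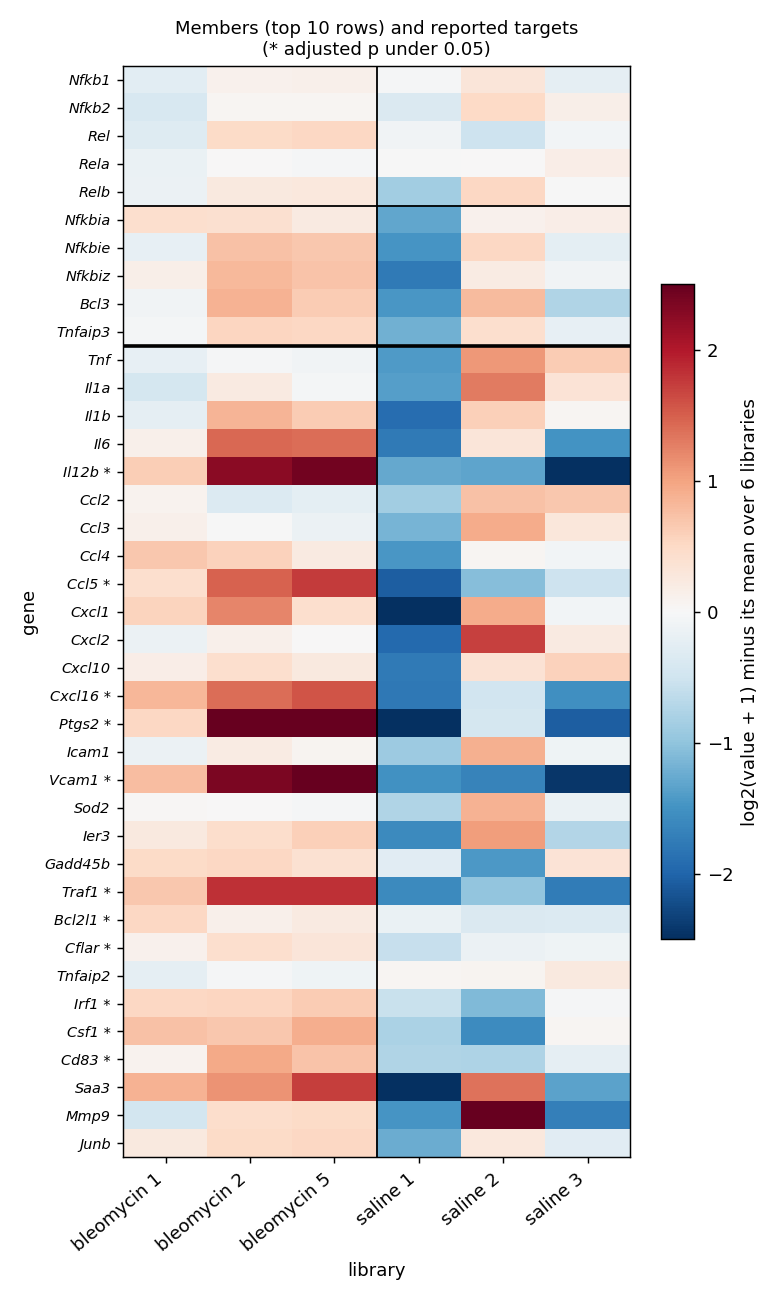
Log2(value + 1) of the 10 genes (top, subunits above the thin line, inhibitors below it) and the 29 tested targets (below the thick line), minus each gene's mean over 6 libraries, with bleomycin libraries left and saline libraries right (colours stop at 2.5 on either side of 0; a star marks an adjusted p under 0.05). Saline replicate 1 is blue across the inhibitors and most targets, while the starred genes are above their mean in all bleomycin libraries.

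Summed markers of dendritic cells, monocytes and T cells (without Cd2) were higher in every bleomycin library than in any saline library. So were Cd40 and the targets that rose. Within groups they did not keep 1 order. In saline replicate 2 Cd40 was highest of the saline libraries, while Rel and the dendritic sum were lowest. Among bleomycin libraries, Cd40 and every target that rose except Bcl2l1 and Csf1 were lowest in replicate 1. Bcl2l1 was highest there. All 7 dendritic cell markers were tested, but Flt3 and Cd209a were at 7.61 and 3.26 in saline replicate 2. These 2 needed bleomycin libraries to pass the filter, so no count of rises is given. The 7 summed to 1262, 2703 and 2895 in bleomycin replicates 1, 2 and 5. In saline replicates 1, 2 and 3 they summed to 702, 322 and 715. None of these 7 was at 0 in any library. Of 9 T cell markers 7 were tested, but Cd3e, Cd3d, Cd3g, Cd28 and Cd8a were under 10 in every saline library and passed the filter only through bleomycin libraries, so no count of rises is given. Cd2 fell, and none of the 9 was at 0 in all libraries of a group. Without Cd2, which was at 7042 or more in every library, the T cell sums were 143, 416 and 483 in bleomycin libraries against 20.6, 28.2 and 23.3 in saline libraries. Of 6 monocyte markers 5 were tested, but Ly6c2 was at 0 in saline replicates 1 and 3, and Cx3cr1 at 8.48 in saline replicate 3. Both needed bleomycin libraries to pass the filter, so no count of rises is given. The monocyte sums were 1207 to 2529.9 in bleomycin and 251 to 306 in saline libraries. In each of these 3 lists (T cells without Cd2) bleomycin replicate 1 had the lowest sum of the bleomycin libraries, as it had the lowest level of Rel and of 8 other members. Of 6 epithelial markers, all tested, Epcam fell (log2 -1.66), Sftpc and Krt18 rose (log2 2.94 and 4.05), and Cdh1 and Scgb1a1 did not pass. Sftpb (log2 3.14) was at 7.61 in saline replicate 2 and needed bleomycin libraries to pass the filter, so no count of rises is given. The sums, 4094 to 4676 in bleomycin and 5779 to 6936 in saline libraries, lay mostly in Epcam and Cdh1. Their means were 1426 and 1939 in bleomycin and 4378 and 1894 in saline libraries. The part of these cells in the results above was not tested.

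The members were also compared with both saline replicate 2 and bleomycin replicate 1 left out, libraries set aside with earlier results of these data known. Saline replicate 2 was the highest saline library in 7 of the 10 genes and bleomycin replicate 1 the lowest bleomycin library in 9, so leaving both out raises most of the differences by construction. With 2 libraries a group, 5 of the 10 rose: Rel, Nfkbie, Nfkbiz, Bcl3 and Tnfaip3 (log2 0.57, 1.56, 1.68, 1.85 and 1.22, limma adjusted p = 0.0117, 0.0208, 0.0462, 0.00203 and 0.0241). Among all genes tested in that subset 9.25% rose. Nfkbia had log2 0.88 (adjusted p = 0.198) and Rela log2 -0.10 (adjusted p = 0.641). The calls on c-Rel and on 4 of the inhibitors thus turned on which libraries entered the comparison.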

How the data were processed

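Gene expression was measured in 6 libraries of lavage macrophages. The deposited values are a normalized signal. Each value above 0 was a whole multiple of 1 read (100% of values in each library, within 0.05 of a read), so they are gene counts divided by 1 size factor per library, as the authors deposited them. The tools were STAR 2.5.2b, HTSeq 0.6.0, bcl2fastq 2.18.0.12 and DESeq2, with build mm10, per the submitters' processing notes. No source used here gives their roles, the annotation or the strand setting. Symbols, for 22873 genes, positions and exon lengths were those of a GENCODE annotation of GRCm38 (mm10), and promoters from RefSeq tables of GRCm38.p6.

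The test was limma 3.58.1 (R 4.3.3) with an intensity trend, run on log2(value + 1) of genes that reached 10 in 3 or more libraries. For low genes this scale gives too small a fold change. Alternatives were other pseudocounts, filters, scalings and variance models, edgeR 4.0.16 and DESeq2 1.42.0 on recovered reads, a replicate block, a length correction and leaving out libraries. The fit was tested on simulated data. All members were named, with the 4 genes of smallest p in each pathway list and, whatever their result, Nfkbib, Nfkbid, Tnip1, Chuk, Ikbkb, Ikbkg, Map3k14, Tnf and Il1b. Genes of like pattern were to be named for members that passed, and 0 passed. The other genes named were chosen after their values were seen. The members and lists were chosen with earlier results of these data known. A further list of cell type markers is not reported here.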

Additional observations from a re-analysis of the deposited data

How the results depend on the processing

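No member passed with another pseudocount, filter, scaling or variance model, with the length correction, by edgeR or by DESeq2. Of 190 recomputed fold changes of members, 6 changed sign and 9 passed the threshold that the reported value had missed. Without saline replicate 2 and bleomycin replicate 1 together, 5 members rose, Nfkb1 (log2 0.24) and Nfkb2 (log2 0.16) changed sign, Relb was at log2 0.70, and 3 other inhibitors, 3 canonical and 5 noncanonical genes were called, of 1741 in all. Leaving out 1 library gave 0 to 1 members that rose, 0 to 1 other inhibitors, 0 to 3 canonical genes, 1 to 3 noncanonical genes, 3 to 13 targets and 664 to 1675 genes in all. It also gave log2 -0.15 to 0.11 for Nfkb1, -0.43 to 0.01 for Nfkb2 and -0.13 to 0.56 for Relb. Canonical genes called were 0 with no filter or no intensity trend, 2 with TMM rescaling or by edgeR, and 3 by DESeq2 or with the length correction. By DESeq2 1 other inhibitor was called, and with no intensity trend 7 targets. The number called over all genes shifted too, from 1846 of 13512 in the reported fit. It was 1465 with no intensity trend, 1857 with TMM rescaling, 1821 by edgeR and 2199 with the length correction. It was 2313 by DESeq2 and, with no filter, 2038 of 22962. Of all calls 71.5% were rises, and 59.7% with quantile normalization. The cause of these shifts was not tested.

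The replicate numbers 1 and 2 occur in both groups. Deviations from the group means correlated at -0.20 between replicates numbered 1 and at 0.02 between those numbered 2 (over 13512 genes), so the numbers were not taken to pair the libraries. With the replicate number as a block, which leaves replicates 1 and 2 of each group to give the difference, 2 members rose, Nfkbia (adjusted p = 0.0231) and Nfkbiz (adjusted p = 0.00359), as did 7.05% of all tested genes. That fit had only 1 residual degree of freedom, so its p-values rest mostly on spread that limma borrows from other genes. The block gave 1147 genes in all, 1 other inhibitor, 0 canonical genes, 1 noncanonical gene and 15 targets, among them Il1b (log2 0.97, adjusted p = 0.0334). Depth did not limit the members.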

Other observations

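Other genes also spread widely among the saline libraries. By a rule set after the values were seen, 24 of 5095 tested genes with a mean of at least 1000 had the saline order replicate 2 over 3 over 1 and a highest saline library at least 4 times the lowest. None of the 10 members was among them, but this rests on the cutoffs. Bcl3 had the order and a 4.72-fold saline span, with means of only 817 in bleomycin and 506 in saline libraries. Nfkbie and Nfkbiz had the order and spans of 3.99-fold and 3.95-fold, just under the limit. The chemokine gene Cxcl3 spanned most, with 341, 332 and 376 in bleomycin replicates 1, 2 and 5, against 384, 12998 and 2313 in saline replicates 1, 2 and 3. The scavenger receptor gene Marco had 11954, 6826 and 9123 in bleomycin libraries, against 9576, 41642 and 19236 in saline libraries. The set also held the immediate early genes Egr1 and Dusp1, the heat shock gene Hspa1b and Socs3, a feedback inhibitor of cytokine signalling. Egr1 had 1365, 1516 and 1864 in bleomycin libraries, against 1228, 11719 and 1881 in saline libraries. For Cxcl3, Marco and Egr1 alike, saline replicate 2 was above every other library. Of the 24 genes, 5 rose after bleomycin by limma (Mmp14, Hp, Socs3, Fam20c and Wfdc17) and 0 fell. Of all tested genes 9.76% rose and 3.9% fell.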
